A study of Caenorhabditis elegans with 6 samples.

Results

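The genes described here encode proteins of the mitochondrial ribosome of the nematode Caenorhabditis elegans. They were taken by name, as all genes called mrpl (large subunit) or mrps (small subunit) followed by a number. They numbered 71 of the 16262 genes measured, 42 of the large and 29 of the small subunit. Any protein of this ribosome whose gene has another name is not included. The mitochondrial ribosome translates the few messages of the mitochondrial genome, which encode core subunits of the respiratory chain and the ATP synthase. Its RNAs come from the mitochondrial genome, whereas its proteins are encoded in the nucleus, made in the cytosol and imported. The small subunit reads the message, and the large subunit joins amino acids and releases the growing chain through an exit tunnel beside the inner membrane.

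RNA was sequenced from whole young adult worms in 6 libraries of 2 knock-in genotypes, 3 of LARP-1::GFP (yq636) and 3 of LARP-1::APEX2 (yq637). LARP-1 belongs to the La-related proteins, and its mammalian relative binds messages of ribosomal proteins, and APEX2 is an engineered peroxidase that marks molecules near it with biotin when given a biotin-coupled aniline and H2O2. Both groups received this treatment. Worms grown at 20 °C on E. coli OP50 were taken from 150 plates and soaked for 2 h at 25 °C in 3.3 mM biotin-aniline (950 µl). Then 11 µl of 100 mM H2O2 was added for 2 min, so 100 mM was the strength of the added solution and not of the mixture. The groups thus share the substrate and differ in the fused tag. The titles name an immunoprecipitation, while the protocols in the labels describe total RNA and no pull-down, and an unenriched input or an untagged strain was not analysed here. Recovery near the tagged protein, a difference between the strains and a difference in culture or preparation therefore cannot be told apart. In whole worms, fewer cells of a type and less RNA per cell cannot be told apart either. Whether replicates came from separate cultures is not given in the labels, and the spread behind each p-value may therefore be a technical one.

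The libraries held 3824041 to 6414569 reads on the listed genes. RNA of the tagged gene, larp-1, was at 2600, 2607 and 2557 normalized counts with GFP and at 2826, 3022 and 2734 with APEX2. Its log2 difference of 0.14 ± 0.09 did not pass (limma, adjusted p = 0.30), and as the tags delete nothing it checks no knockout. In a principal component analysis the groups parted on the first axis (50.9% of the variance), and APEX2 replicate 1 lay away from the other APEX2 libraries on the next (19.5%). The oocyte markers had 5 higher and 1 lower of 6, with summed normalized counts of 18357 to 18927 with GFP and 22665 to 24401 with APEX2. The germline list had 2 higher and 1 lower of 5 (13834 to 14635 against 14690 to 15933), the intestine list 1 and 1 of 6 (29692 to 36053 against 25329 to 33606), the body wall muscle list 2 and 1 of 5 (17134 to 19759 against 19682 to 23940) and the hypodermis list 2 and 0 of 4 tested (4448 to 5295 against 4098 to 5748). Sperm (708 to 820 against 740 to 821) and neuron markers (1218 to 1275 against 1376 to 1388) had none called, and the sperm marker spe-9 was at 0 in 4 of the libraries. Among all tested genes 10.1% were lower and 11.6% higher. The sums rest mainly on the most abundant markers. In the germline list pgl-1 was lower, at a mean of 1010 with GFP and 503 with APEX2, while the abundant gld-1, at 8524 and 9701, was not called. The part of these cell types in the results below was not tested.

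Messages of the mitochondrial ribosome were lower with APEX2 in 13 genes and higher in 0, and 58 did not pass. Differences throughout are APEX2 minus GFP in log2(normalized count + 1), given with standard errors, and a gene was called at an adjusted p under 0.05 in limma, with Benjamini-Hochberg adjustment over the 10534 genes whose mean was at least 10. All 71 genes were among those tested, on 240 to 4020 reads over the 6 libraries. The lower calls were 18.3% of the genes, where the share among all tested genes was 10.1% for lower and 11.6% for higher. Without GFP replicate 3, 8 were lower, while the share over all tested genes fell to 5.22%. At an unadjusted p under 0.05, 19 were lower and 2 higher, against 15.9% and 18% of all tested genes, and the higher 2 were mrps-5 and mrpl-16. On whole reads recovered from the table, the quasi-likelihood test of edgeR called 14 lower and 0 higher, against 10.4% and 10.6% of all tested genes, and DESeq2 called 13 and 0, against 9.09% and 9.82%. The differences ran from -1.27 to 0.29 with a median of -0.10, against 0.02 for all tested genes, and 47 of the 71 were negative, against 5038 of 10534. The values of the groups did not overlap in 21 genes that were lower and 5 that were higher with APEX2, where 17.5% and 19.9% of all tested genes did the same. The 5 were mrpl-48, mrpl-53, mrpl-20, mrps-5 and mrpl-16, and none of them passed the test.

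**Figure D1:**
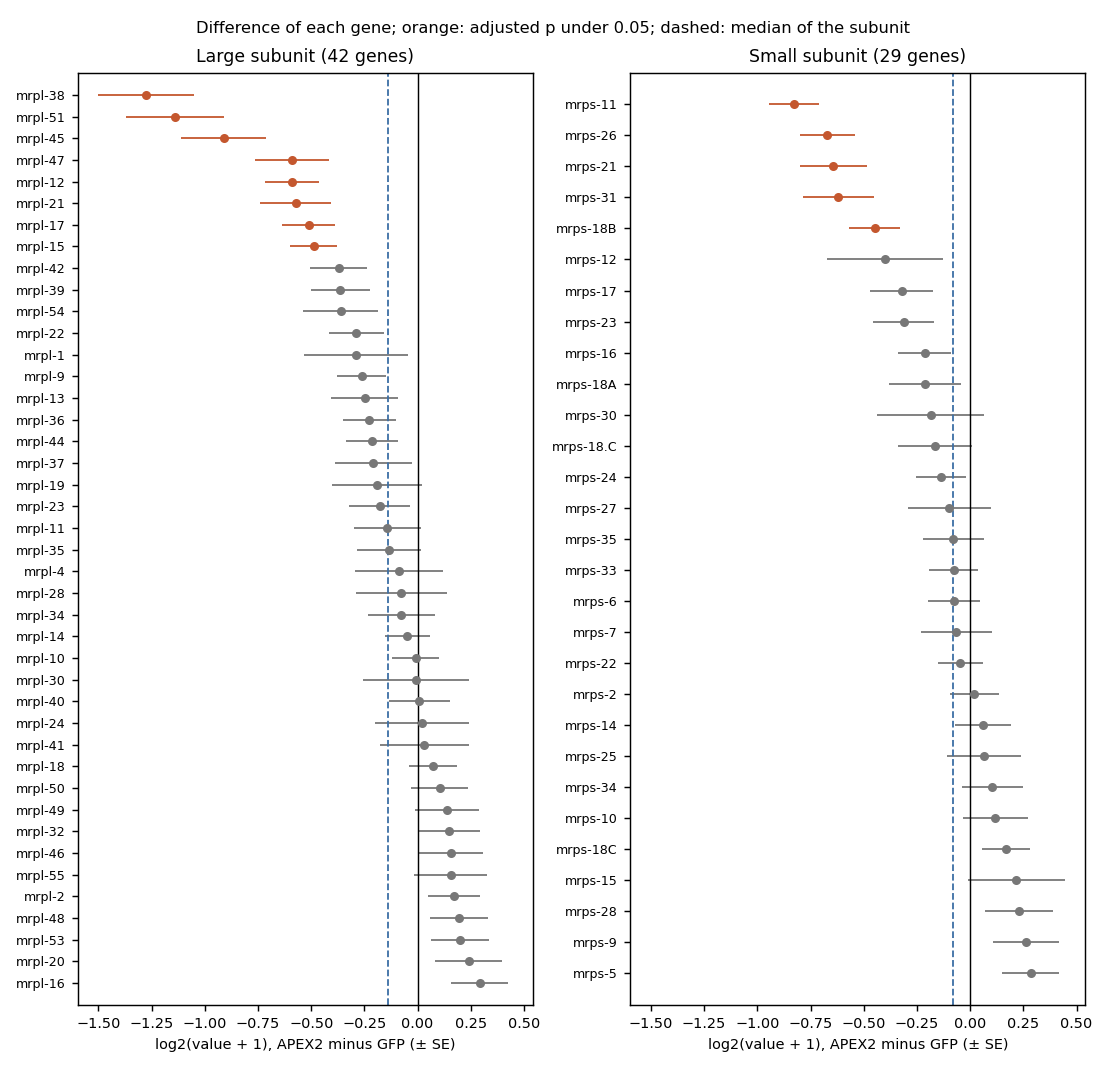
Log2 difference of each of the 71 genes, LARP-1::APEX2 minus LARP-1::GFP, with standard errors (3 libraries a group), by subunit and sorted by size. Orange points passed an adjusted p under 0.05; 8 of the large and 5 of the small subunit did, all to the left of 0, and the dashed subunit medians lie at -0.14 and -0.08.

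The large subunit had 8 of 42 lower (19.05%) and a median difference of -0.14, and the small subunit had 5 of 29 lower (17.2%) and a median of -0.08. Among all tested genes in the same fit 10.1% were lower and 11.6% higher, with a median of 0.02. Without GFP replicate 1 the large subunit had 5 lower genes, where all tested genes gave 6.3%, and without GFP replicate 3, where they gave 5.22%, the small subunit had 2. Summed over the large subunit, normalized counts were 8607, 8662 and 8896 with GFP and 7658, 7787 and 8062 with APEX2. For the small subunit the sums were 7356, 7502 and 7585 with GFP and 6863, 6822 and 6962 with APEX2. In each subunit the highest APEX2 library stayed below the lowest GFP library. The mean sum with APEX2 was 89.8% of that with GFP for the large and 92.0% for the small subunit. Most of this lay in the 13 called genes, whose sum was 64.8% of that with GFP. The 58 others, split off by the test itself and so described only, summed to 12457, 12684 and 12822 with GFP and 12339, 12342 and 12573 with APEX2, or 98.1%, and their groups overlapped. The ratio of the large to the small sum was 1.17 ± 0.00978 with GFP and 1.14 ± 0.0212 with APEX2 (SD, n = 3), and with 1.15 to 1.17 against 1.12 to 1.16 the groups overlapped. No test of a difference between the subunits was made. The 71 genes together took 0.367% ± 0.0104 of the summed values with GFP and 0.321% ± 0.0178 with APEX2 (SD, n = 3).

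**Figure D2:**
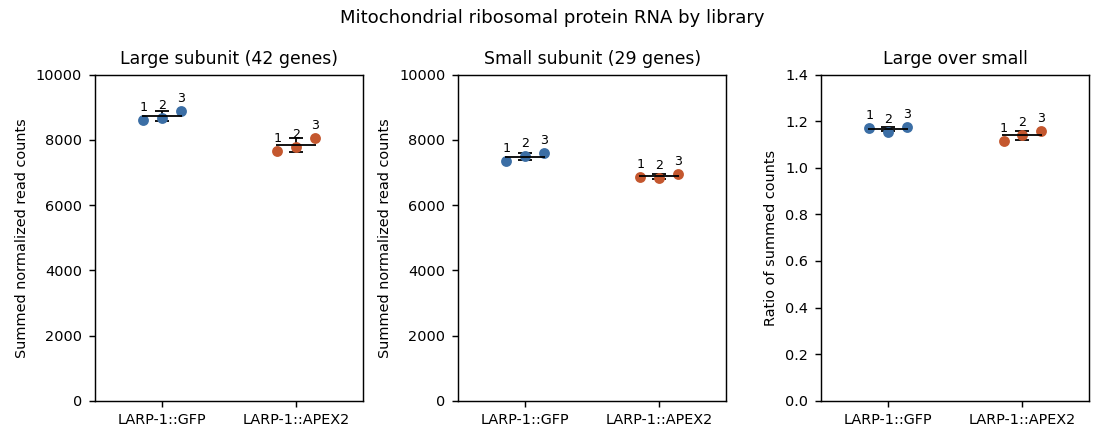
Summed normalized read counts of the large and small subunit genes and their ratio, one numbered point per replicate, with mean and SD (n = 3). Both sums lie lower in the 3 APEX2 libraries, while the ratios of the groups overlap.

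Numbers up to 36 in the large and up to 21 in the small subunit follow the names of bacterial ribosomal proteins, and higher numbers were mostly given to proteins specific to mitochondria. Of the 42 bacterial-type genes 7 were lower (16.7%), with a median of -0.11. Of the 29 mitochondria-specific genes 6 were lower (20.7%), with a median of -0.10. Among all tested genes 10.1% were lower and 11.6% higher, and the median was 0.02. Within the large subunit, 4 of 25 bacterial-type (16%) and 4 of 17 mitochondria-specific genes (23.5%) were lower, with medians of -0.13 and -0.21. Within the small subunit the counts were 3 of 17 (17.6%) and 2 of 12 (16.7%), with medians of -0.08 and -0.09.

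Among bacterial-type proteins of the large subunit, 4 were lower. The gene mrpl-12 (WBGene00012361) encodes the protein of the flexible stalk that recruits translation factors, and it lies on chromosome III at 10707761 to 10708521 in WBcel235. Its normalized counts were 366, 383 and 371 with GFP and 212, 271 and 266 with APEX2. All APEX2 libraries were below all GFP libraries, and the log2 difference was -0.59 ± 0.13 (limma, adjusted p = 0.0047). The gene mrpl-15 (WBGene00022373, chromosome I, 1436279 to 1441334), whose bacterial relative is a core protein of the large subunit, had 479, 479 and 503 with GFP against 341, 328 and 374 with APEX2. These groups stood well apart, with a difference of -0.49 ± 0.11 (limma, adjusted p = 0.0058). The gene mrpl-17 (WBGene00021829, chromosome I, 3162813 to 3163585), whose bacterial relative sits near the exit of the tunnel, had 366, 307 and 329 with GFP and 226, 224 and 250 with APEX2. It was lower in every APEX2 library, by -0.51 ± 0.12 on the log2 scale (limma, adjusted p = 0.0093). The gene mrpl-21 (WBGene00023422, chromosome III, 4242672 to 4243561) had 120, 104 and 124 with GFP against 74.2, 77.4 and 80.9 with APEX2. Its APEX2 libraries were close to each other and below GFP, with a difference of -0.57 ± 0.17 (limma, adjusted p = 0.023).

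The other 4 lower genes of the large subunit carry higher numbers, and among them were the 3 greatest differences of the set. The gene mrpl-38 (WBGene00021327, chromosome I, 1019827 to 1029910) had 78.5, 76.2 and 89.1 normalized counts with GFP and 31.8, 26.1 and 42.9 with APEX2. The APEX2 mean was 41.4% of the GFP mean, and the log2 difference was -1.27 ± 0.23 (limma, adjusted p = 0.0013). The gene mrpl-51 (WBGene00011740, chromosome IV, 12031324 to 12032154) had 117.8, 119.9 and 118.8 with GFP and 38.9, 48.5 and 80.3 with APEX2. Its GFP libraries were nearly equal while its APEX2 libraries were widely spread, replicate 3 being the highest, and the difference was -1.14 ± 0.23 (limma, adjusted p = 0.0032). The gene mrpl-45 (WBGene00022493, chromosome III, 1196389 to 1202008), whose human relative holds the ribosome at the inner membrane beside the tunnel exit, had 144, 153 and 164 with GFP and 57.7, 99.8 and 93.4 with APEX2. APEX2 replicate 1 was lowest, and the difference was -0.91 ± 0.20 (limma, adjusted p = 0.0052). The gene mrpl-47 (WBGene00015092, chromosome I, 5244283 to 5245402), which in humans is related to a bacterial protein at the tunnel exit, had 252, 225 and 251 with GFP and 216, 129 and 150 with APEX2. APEX2 replicate 1 came close to the lowest GFP library, and the difference was -0.59 ± 0.17 (limma, adjusted p = 0.026).

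Of the small subunit's bacterial-type proteins, 3 were lower. The gene mrps-11 (WBGene00012244, chromosome V, 12493239 to 12494622), whose protein lies on the platform of the small subunit in bacteria, had 437, 445 and 472 normalized counts with GFP and 278, 255 and 230 with APEX2. The groups were far apart, and its difference of -0.83 ± 0.12 had the lowest adjusted p of the set (limma, 0.00030). The gene mrps-21 (WBGene00017924, chromosome IV, 4659049 to 4659517) had 201, 199 and 211 with GFP and 105, 140 and 150 with APEX2. APEX2 replicate 1 was the lowest, and the difference was -0.64 ± 0.16 (limma, adjusted p = 0.0100). The gene mrps-18B (WBGene00011759, chromosome II, 8525681 to 8526807), 1 of 4 genes named mrps-18 in the table, had 382, 417 and 421 with GFP and 295, 268 and 333 with APEX2. The groups did not overlap, and the difference was -0.45 ± 0.12 (limma, adjusted p = 0.016). The other mrps-18 genes were not called, with -0.21 ± 0.17 for mrps-18A, -0.16 ± 0.17 for mrps-18.C and 0.17 ± 0.11 for mrps-18C.

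Both lower genes of the small subunit with higher numbers lie on chromosome III. The gene mrps-26 (WBGene00016412, 5234612 to 5236364) had 348, 388 and 365 with GFP and 198, 241 and 255 with APEX2. All APEX2 libraries were lower, with a difference of -0.67 ± 0.13 (limma, adjusted p = 0.0023). The gene mrps-31 (WBGene00007859, 3627234 to 3630372) had 214, 183 and 239 with GFP and 110, 160 and 145 with APEX2. Its GFP libraries varied more than those of mrps-26, and the difference was -0.62 ± 0.17 (limma, adjusted p = 0.017).

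**Figure D3:**
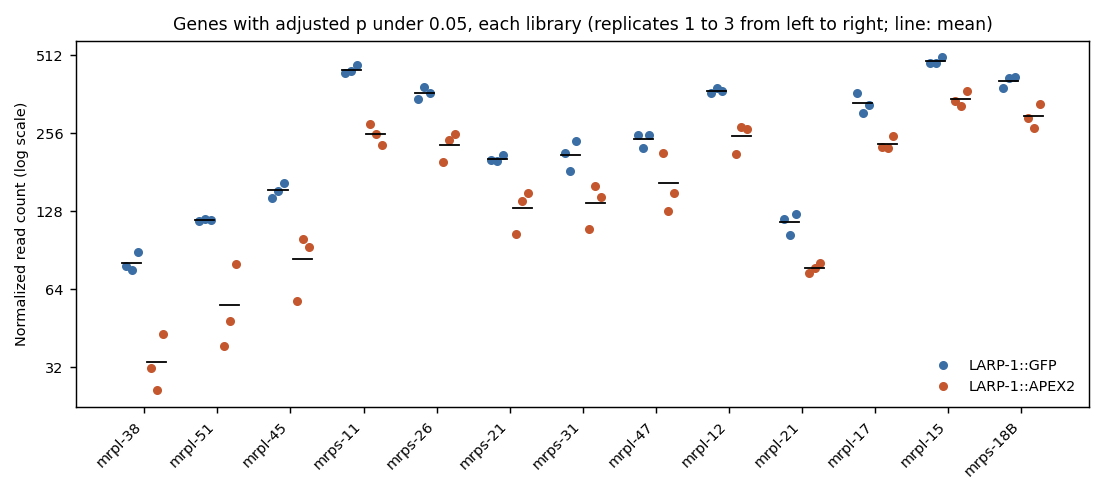
Normalized read count (log scale) of the 13 lower genes in each library, replicates 1 to 3 from left to right, with a line at each group mean. In every one of the 13 the 3 APEX2 points lie below the 3 GFP points, and mrpl-51 has the wide APEX2 spread described above.

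The genes that did not pass lay between -0.40 and 0.29. In the large subunit the lowest of them were mrpl-42 (-0.37 ± 0.13), mrpl-39 (-0.36 ± 0.14) and mrpl-54 (-0.36 ± 0.18). The highest were mrpl-16, whose bacterial relative lies beside the bound transfer RNAs, with 186, 178 and 212 normalized counts with GFP and 245, 242 and 218 with APEX2 (0.29 ± 0.13), mrpl-20 (0.24 ± 0.16), an early assembly protein in bacteria, and mrpl-53 (0.20 ± 0.14). In the small subunit the lowest were mrps-12 (-0.40 ± 0.27), whose bacterial relative helps decoding, mrps-17 (-0.32 ± 0.15) and mrps-23 (-0.31 ± 0.14). The highest were mrps-5, mrps-9 and mrps-28. The gene mrps-5 is known from work in which its depletion lengthened worm life, and it had 292, 246 and 289 with GFP and 335, 382 and 294 with APEX2. Its APEX2 values were all above GFP, but the difference of 0.28 ± 0.13 did not pass (limma, adjusted p = 0.15). The gene mrps-9 was at 0.26 ± 0.15 and mrps-28 at 0.23 ± 0.16, where APEX2 replicate 1 alone was high, at 388 against 234 to 272 in the others.

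Per kilobase of exon, levels spanned a wide range within each subunit. In the large subunit the lowest level was that of mrpl-1, which carries the stalk at the exit site for transfer RNA in bacteria, with 28.3 normalized counts per kilobase with GFP and 23.0 with APEX2, followed by mrpl-38 with 61.0 and 25.2. The highest was mrpl-36, a short gene, with 922 and 787, followed by mrpl-18 with 605 and 636. In the small subunit mrps-30 (32.9 and 29.9) and mrps-27 (73.3 and 69.7) were the lowest, and mrps-2 (649 and 657) and mrps-24 (576 and 522) the highest by the mean of all 6 libraries. With GFP alone mrps-11, at 591, stood above mrps-24, and with APEX2 it was at 333. Relatives of mrps-30 and mrps-18A stand in the large subunit in human structures, and neither gene was called here.

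Replicates spread more with APEX2 than with GFP. The median SD of log2 values over the 71 genes was 0.11 with GFP and 0.18 with APEX2, against 0.16 and 0.23 for all tested genes. The highest library was at least 1.5 times the lowest in 1 gene with GFP (mrpl-19) and in 16 with APEX2, and at least 2 times in 4 with APEX2, which were mrpl-51, mrps-12, mrpl-28 and mrpl-30. Of all 6 libraries, APEX2 replicate 1 was the lowest for 25 of the 71 genes, or 35.2%, against 22.1% of all tested genes. In the library medians of the deviation from the GFP mean, the large subunit stood at -0.17, -0.12 and -0.09 in APEX2 replicates 1 to 3 and the small subunit at -0.18, -0.11 and -0.08. Of the 13 lower genes, 7 were lowest in APEX2 replicate 1, 5 in replicate 2 and 1 in replicate 3.

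The calls of 6 of the 13 genes did not hold in every fit that left out a single library. Such fits also changed the lower calls over all tested genes, from 1069 to 664, 638 or 550 without GFP replicate 1, 2 or 3. Without APEX2 replicate 1, 2 or 3 they numbered 1191, 825 or 1134. The difference of mrpl-47 was -0.64 without GFP replicate 2 and -0.43 without APEX2 replicate 2, against -0.59 in the reported fit. The reason a call was lost was not tested. Over 17 alternative settings, mrpl-38, mrpl-51, mrpl-45, mrps-11, mrps-26, mrpl-12 and mrpl-15 stayed called in all of them. The call of mrpl-47 held in 11, the fewest of the 13, and without APEX2 replicate 2, 3 or GFP replicate 1, 2, 3 its adjusted p was 0.12, 0.051, 0.094, 0.058 or 0.11 in limma. Calls were lost without GFP replicate 1 for mrpl-17, mrpl-21 and mrps-31 (limma, adjusted p = 0.060, 0.092 and 0.066). Leaving out GFP replicate 3 ended those of mrpl-21, mrps-31, mrps-21 and mrps-18B (limma, adjusted p = 0.12, 0.11, 0.059 and 0.087). Without APEX2 replicate 2, mrpl-21 and mrps-18B were lost (limma, adjusted p = 0.053 and 0.072), and without GFP replicate 2, mrps-18B (0.072). With a variance prior that had no trend and no robust step, mrpl-47, mrps-18B and mrps-31 did not pass (limma, adjusted p = 0.099, 0.068 and 0.070). In the other direction, mrpl-42 was called in 4 settings, mrpl-39 and mrpl-9 in 2 each and mrps-17 in 1, all lower.

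**Figure D4:**
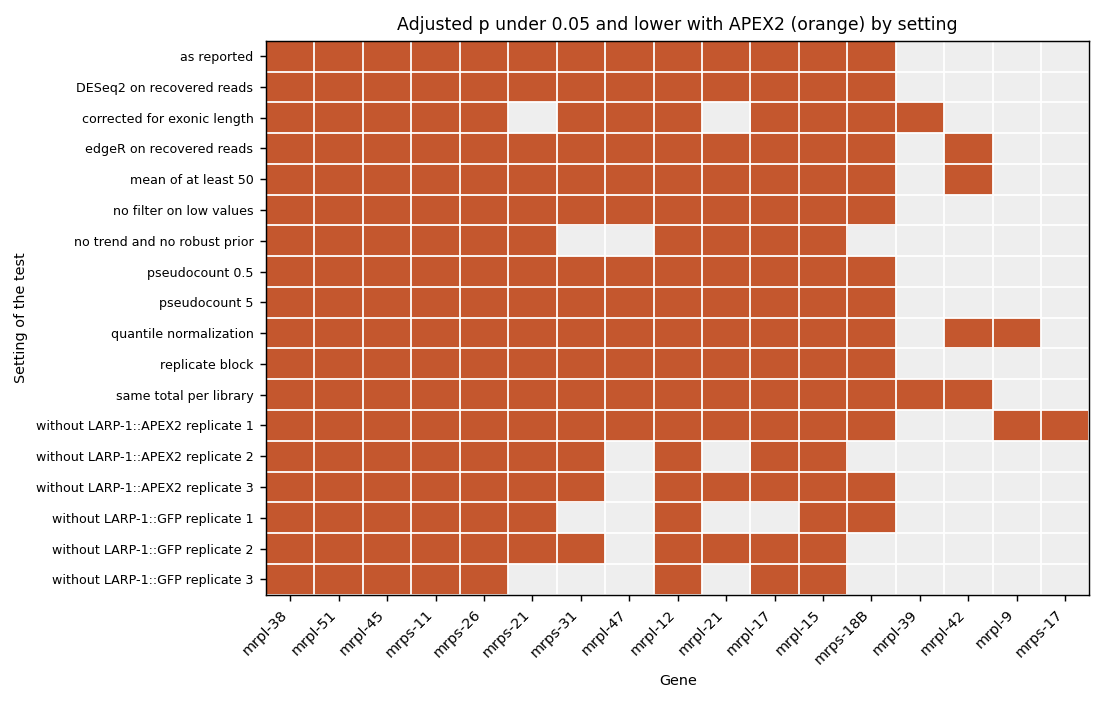
Genes called lower with APEX2 (orange, adjusted p under 0.05) under the reported test and 17 other settings, for the 13 genes called in the reported test and 4 called only elsewhere. The columns of 7 genes are filled throughout, and the gaps of the others lie mainly in the rows that leave out a library.

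The genes were short, with a median exonic length of 755 nucleotides (309 to 2164) against 1417 for all tested genes, among which shorter genes tended to be lower with APEX2. Across genes, which are not independent and share all libraries, Spearman's rho of length with the log2 difference was -0.03 over the 70 genes with a known length and 0.15 over all tested genes with one. Within the large subunit rho was -0.24 over 41 genes and within the small subunit 0.18 over 29. When differences were corrected for length over all genes, 12 of the 70 were called lower and 0 higher (limma), against 9.35% and 10.2% of all genes in that test, and the median was -0.06. The large subunit then had 8 of 41 lower and a median of -0.07, and the small subunit 4 of 29 and -0.03. The genes mrps-21, of 416 nucleotides, and mrpl-21 were no longer called (-0.40, adjusted p = 0.090, and -0.48, adjusted p = 0.057), while mrpl-39 was, with an adjusted p of 0.049. The longer genes mrpl-38 and mrpl-45 were at -1.33 and -0.97 after the correction. With corrected differences rho was 0.006 over all tested genes with a length, but -0.33 over the 70 genes. It was -0.48 within the large and -0.12 within the small subunit, so within this set the corrected values are not free of length.

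**Figure D5:**
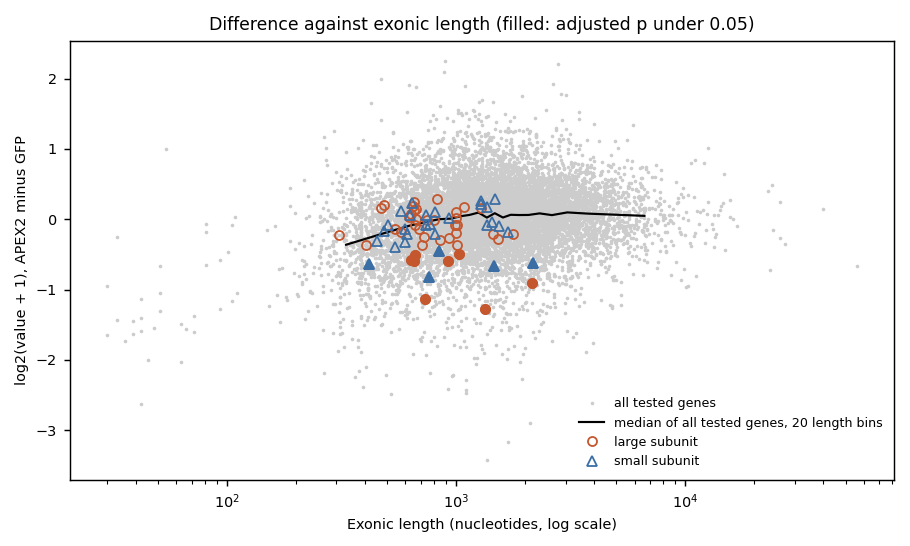
Log2 difference against exonic length (log axis) for all tested genes (grey), with their median in 20 bins of length as a line, and for the large (circles) and small (triangles) subunit, filled where the adjusted p was under 0.05. Most of the 70 genes with a length lie among the shorter genes, and the filled points span 416 to 2164 nucleotides.

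The genes lay on the 5 autosomes, with 15 on I, 12 on II, 22 on III, 11 on IV and 10 on V. Chromosome III held 31.4% of the genes with a position, against 17.2% of the tested genes. There were 0 on X, which holds 13.4% of the tested genes. On I to V, 4, 1, 5, 2 and 1 were lower, where 10.1% of all tested genes were lower. A same-strand neighbour lay within 500 nucleotides, a limit chosen after the positions were seen, for 43 of 70 genes (61.4%), against 36.8% of all tested genes. The lower genes numbered 8 of those 43 and 5 of the other 27, with medians of -0.09 and -0.14. Of 9 tested neighbours of the lower genes, 2 passed, where 10.1% of all tested genes were lower and 11.6% higher. The gene prx-10, for peroxisome assembly, begins 39 nucleotides after mrps-26 and fell by 0.80 on the log2 scale, with 193, 196 and 183 normalized counts with GFP and 111, 87.7 and 132 with APEX2 (limma, adjusted p = 0.0035). F29B9.11, 113 nucleotides before mrps-21, rose, with 2869, 3339 and 3177 with GFP and 5868, 4946 and 4671 with APEX2 (0.72 ± 0.11; limma, adjusted p = 0.00041). The only neighbours that both belong to the set, mrps-2 and mrpl-4, were at 0.02 ± 0.12 and -0.09 ± 0.21.

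Exons of 20 of the 70 genes overlap those of another protein-coding gene (28.6%, against 27.4% of all tested genes), and for 7 of these the partner is on the same strand. The use of strand in counting is not given in the sources used here, so reads of the partners cannot be told apart there. Among lower genes the overlap was short and on the opposite strand, with 31 nucleotides for mrps-11 and inx-11, 53 for mrpl-12 and W09D10.5 and 9 for mrps-18B and T13H5.6. The longest overlaps, of 419 nucleotides between mrpl-42 and lpl-1 and 276 between mrpl-1 and emc-6, concern genes that were not called. Without the 20 genes, 10 of 51 were lower, where mrpl-14, which has no position here, was kept among the 51.

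Other genes of mitochondrial gene expression were taken as 3 lists. Of 7 translation factors, 4 were listed and 0 were called in limma, edgeR or DESeq2, with 1 lower at an unadjusted p under 0.05. That gene, tufm-2, an elongation factor that brings transfer RNA to the ribosome, had 209, 216 and 207 normalized counts with GFP and 152, 139 and 184 with APEX2 (-0.42 ± 0.14; limma, adjusted p = 0.051). Its paralog tufm-1 was at 0.10 ± 0.10, the elongation factor gfm-1 at -0.22 ± 0.11 and tsfm-1 at 0.23 ± 0.14. The list did not hold mrrf-1, named for the factor that recycles the mitochondrial ribosome and added here after its values were seen, which had 56.0, 39.2 and 65.1 with GFP and 20.0, 29.9 and 22.1 with APEX2. Its groups did not overlap, and its difference of -1.11 ± 0.26 passed (limma, adjusted p = 0.0085), but not without GFP replicate 3 (0.069). The gene dap-3, outside the lists and outside the name rule of the 71 genes, was looked at beside mrrf-1. It was not called (0.05 ± 0.26, limma, adjusted p = 0.92). Of 10 listed mitochondrial transfer RNA synthetases 1 was lower and 0 higher in limma, edgeR and DESeq2. That was 10% lower, near the 10.1% of all tested genes in limma, of which 11.6% were higher. At an unadjusted p under 0.05 in limma 2 were lower and 1 higher, against 15.9% and 18% of all tested genes. The called gene was fars-2, for phenylalanine, with 146, 165 and 152 with GFP and 127, 69.1 and 83.0 with APEX2 (-0.77 ± 0.20; limma, adjusted p = 0.015). Its APEX2 replicate 1 was nearer to GFP than the other two. The call was lost without APEX2 replicate 2 or GFP replicate 2 or 3 (limma, adjusted p = 0.068, 0.071 and 0.063) and with no trend and no robust prior (0.068). None of 8 genes for transcription and RNA handling was called, in edgeR or DESeq2 either, nor at an unadjusted p under 0.05, the median being 0.14. For comparison, 30 of 77 tested cytosolic ribosomal protein genes were lower and 3 higher (median -0.23). These genes were short as well, with a median of 532 nucleotides, and after the length correction 18 were lower and 11 higher (median -0.09). In that corrected test 9.35% of all genes were lower and 10.2% higher. Of the 12 protein-coding genes of the mitochondrial genome 8 were lower and 0 higher, and 11 differences were negative (median -0.66). Their summed counts spread widely, from 52241 to 69213 with GFP and from 32643 to 44635 with APEX2. Only 3 of them have a length here, so the length correction did not cover the others.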

How the data were processed

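Ribosome-depleted RNA libraries of 6 samples were measured. Per the submitters' processing notes, Trim Galore, Bowtie, STAR, featureCounts and DESeq2 were used with the build ce11 (versions, roles, settings and strand use: not given in the sources used here). For each gene and library, the authors deposited a signal that is a read count divided by a size factor of the library: every value, 100% in each library, came to whole reads within 0.001 of a read. Reads outside the listed genes are unknown, and PCR copies were not separated from molecules.

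The test was limma 3.58.1 (R 4.3.3) on log2(value + 1), with trended, robust prior and no covariate, over genes with a mean of at least 10. The scale understates differences of genes with few reads. Recovered reads were tested with edgeR 4.0.16 and DESeq2 1.42.0. Limma, with and without length correction, edgeR and DESeq2 were tested on simulated data. Symbols and positions came from the Ensembl WBcel235 annotation (same assembly as ce11), matching 70 of the 71 genes; mrpl-14 has no length or position here. Length correction used a lowess with span 0.3. The genes named were larp-1, all called genes, the 3 highest and 3 lowest uncalled genes and the 2 highest and 2 lowest levels per length in each subunit, genes with overlap or changing calls, and called pathway genes. The genes and lists were chosen with earlier results of these data known. Library pairs differed beyond sampling noise (chi-square per degree of freedom 2.62 to 10.7), so none was merged.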

Additional observations from a re-analysis of the deposited data

How the results depend on the processing

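The counts of lower genes kept within 1.5 times of those reported in most of the settings tried. Exceptions are given here, and the cause was not tested. Leaving out single libraries gave 8 to 15 lower genes in all, 5 to 9 of the large and 2 to 6 of the small subunit. Over all 10534 tested genes the same fits gave 550 to 1191 lower. The small subunit had 3 with no trend and no robust prior, and 3 without genes whose exons overlap another gene. The translation factor list had 1 called gene with length correction, a mean of at least 50, quantile normalization or the same total per library, and 0 to 1 with a library left out; the synthetase list had 0 with no trend and no robust prior and 0 to 2 with a library left out. The large subunit median was -0.073 with length correction and -0.19 with the same total per library (-0.21 to -0.094 with a library left out), and the small subunit median -0.13 with quantile normalization and -0.13 with the same total (-0.13 to -0.058). The bacterial-type median was -0.034 with length correction and -0.17 with the same total (-0.19 to -0.084), and the mitochondria-specific median -0.15 with the same total (-0.17 to -0.083). Counting mrps-30 and mrps-18A with the large subunit, or mrpl-47, mrps-24 and mrps-28 with the bacterial-type genes (chosen after seeing the data), kept every count and median within these limits. Scaling to the same total moved the median of all genes from 0.02 to -0.03.

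Among the named genes and uncalled genes with overlap, signs changed only where the gene was not called. With length correction mrpl-10 was at 0.010, mrpl-24 at -0.016, mrpl-30 at 0.032, mrpl-34 at 0.0046, mrpl-35 at 0.016, mrpl-36 at 0.13 and mrps-2 at -0.0018. The same total per library put mrpl-24 at -0.034 and mrps-2 at -0.038, quantile normalization mrpl-30 at 0.018 and mrps-2 at -0.065, edgeR mrpl-30 at 0.097 and mrps-2 at -0.0041, and DESeq2 mrpl-30 at 0.083 and mrps-2 at -0.0015. With a library left out, ranges were -0.061 to 0.025 for mrpl-10, -0.14 to 0.27 for mrpl-24, -0.33 to 0.20 for mrpl-28, -0.35 to 0.21 for mrpl-30, -0.24 to 0.10 for mrpl-34, -0.057 to 0.42 for mrps-15, -0.058 to 0.097 for mrps-2, -0.24 to 0.12 for mrps-27 and -0.17 to 0.018 for mrps-35. Over all genes, leaving out GFP replicate 1, 2 or 3 gave 664, 638 or 550 lower and 744, 783 or 612 higher. Leaving out APEX2 replicate 1, 2 or 3 gave 1191, 825 or 1134 lower and 1310, 828 or 1278 higher. The prior without trend gave 736 and 651.

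Same-numbered libraries did not deviate together (correlations -0.16, -0.08 and 0.02), so the numbers were not taken as pairs. With the replicate block, 883 genes were lower and 984 higher, and 13 and 0 of the mitochondrial ribosome. The genes with fewest reads, such as mrpl-1, limit what could be detected.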
